A study of Rattus norvegicus with 17 samples.

Results

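The regions described here are the places where the chromatin remodeller Brg1 was already called as bound in oligodendrocyte precursor cells (OPC). The Brg1 peak lists of OPC, immature oligodendrocytes (iOL) and mature oligodendrocytes (mOL) were joined wherever peaks overlapped or touched, which gave 7633 regions, and the 451 regions that hold an OPC Brg1 peak were taken (5.91% of all). The regions were thus chosen by their OPC Brg1 peaks, which are given as a description only. They hold all 452 OPC peaks, since 1 region holds 2 of them. The cells were primary cells of wild type Sprague-Dawley rats, isolated from the cortex of pups aged 2 days. The OPC carried the label of mitogen treatment, the growth medium holding PDGF-AA at 10 ng/ml and bFGF at 20 ng/ml. The iOL and mOL both carried the label of T3 treatment, the differentiation medium holding the thyroid hormone T3 at 15 nM and ciliary neurotrophic factor at 10 ng/ml. The stages are those of the sample titles, while the growth protocol, given alike for every sample, calls the isolated cells iOL. Which name is right for the cells before differentiation cannot be told from these files. Chromatin immunoprecipitation with sequencing was done for Brg1, the lineage factor Olig2, RNA polymerase II (RNAPII) and 3 histone marks. Every target had a single library per stage, 17 in all, and RNAPII was not analysed in mOL. The sources used here do not say how many cultures or animals stand behind a library. With 1 library a group there is no replicate check and no test between stages or between groups of regions. Percentages are followed by exact Clopper-Pearson 95% intervals over regions, which cover counting error only. Positions are those of rat build rn4. The lists hold no read numbers, so depth is unknown, and a region without a peak cannot be told apart from one bound too weakly to be called. In these bulk cells, a peak in some of the cells and a weaker peak in all of them cannot be told apart either. The identity of the cells could not be checked against marker genes, since expression was not analysed here.

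Brg1, encoded by Smarca4, is the ATPase of the BAF complex, which slides or evicts nucleosomes and so opens DNA to transcription factors. It has no strong sequence preference of its own and is brought to sites by factors such as Olig2, a basic helix-loop-helix protein that specifies the oligodendrocyte lineage and binds E-box sequences. H3K27Ac is carried by active enhancers and promoters, H3K4me3 by promoters and H3K9me3 by silenced chromatin. A region with H3K27Ac and without H3K4me3 is here said to be of enhancer type.

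Nearly every OPC Brg1 region was called again in iOL, and about 2 in 3 were called in mOL. An iOL Brg1 peak was present at 449 of 451 (99.6%, 98.4 to 99.9) regions, where all 7633 Brg1 regions had 71.4%. An mOL Brg1 peak was present at 302 of 451 (67.0%, 62.4 to 71.3), against 56.9% of all regions. That figure for all regions includes the 2180 regions that entered the union through the mOL list alone. A closer comparison is with the 5002 regions that had an iOL peak and no OPC peak, called other iOL regions below, of which 37.2% (35.9 to 38.6) had an mOL peak. By stage, 301 OPC regions had Brg1 at all 3 stages, 148 in OPC and iOL, 1 in OPC and mOL and 1 in OPC alone. For the 149 regions without mOL Brg1 the nearest mOL peak was mostly far off, at a median of 171 kb, and within 20 kb of 18. The region without Brg1 at either later stage, chr17:88210164-88211135, was 972 bp wide and met Olig2 in OPC and no other peak of any target. Its nearest iOL Brg1 peak lay 73150 bp away. The region that lacked Brg1 in iOL alone, chr3:116065065-116065958, had peaks of 894 bp in OPC and 680 bp in mOL, no Olig2 at any stage, and H3K27Ac in mOL only.

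The peaks of the 3 lists lay close together within the regions. The centre of an OPC peak was a median of 110.5 bp (98.0 to 133) from the centre of the iOL peak it met, and 116.5 bp (99.5 to 131.5) from that of the mOL peak. It was within 200 bp for 319 of 450 iOL pairs and 214 of 301 mOL pairs. The distances are small beside the width of the peaks. Only pairs of peaks that share at least 1 bp were measured, so this closeness is in part set by the rule. How close unrelated overlapping peaks would lie was not tested. Every region contains a whole OPC peak, and the nearest region outside the set lay 36 bp from an OPC peak.

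OPC Brg1 regions were wide. Their median width was 1495 bp (1449 to 1547) with quartiles of 1221 and 1817 bp and a range of 668 to 5447 bp, against 943 bp (932 to 952) for all Brg1 regions and 995 bp (982 to 1008) for the other iOL regions. A region joined from more lists is wider by construction, so the peaks of a single list were also compared. The iOL peaks in OPC Brg1 regions had a median of 1192 bp (1158 to 1252), and the iOL peaks elsewhere 967 bp (955 to 979). For mOL peaks the medians were 933 bp (884 to 977) and 806 bp (796 to 815). The share of regions with an OPC peak was uneven over the iOL list: it was 39 of 1366 (2.86%, 2.04 to 3.88) in the quartile of narrowest iOL peaks, 298 to 781 bp, and 188 of 1363 (13.8%, 12.0 to 15.7) in the widest, 1276 to 5447 bp. Within a region the OPC peak was wider than the iOL peak in 249 of 449 cases, a median difference of 45.0 bp (10.0 to 82.0). It was wider than the mOL peak in 253 of 302 cases, by a median of 332.5 bp (295 to 388). Across regions the widths of OPC and iOL peaks had a Spearman rho of 0.53 (n = 449), and those of OPC and mOL peaks 0.35 (n = 302). Differences of width between lists cannot be told apart from differences of depth.

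**Figure D1:**
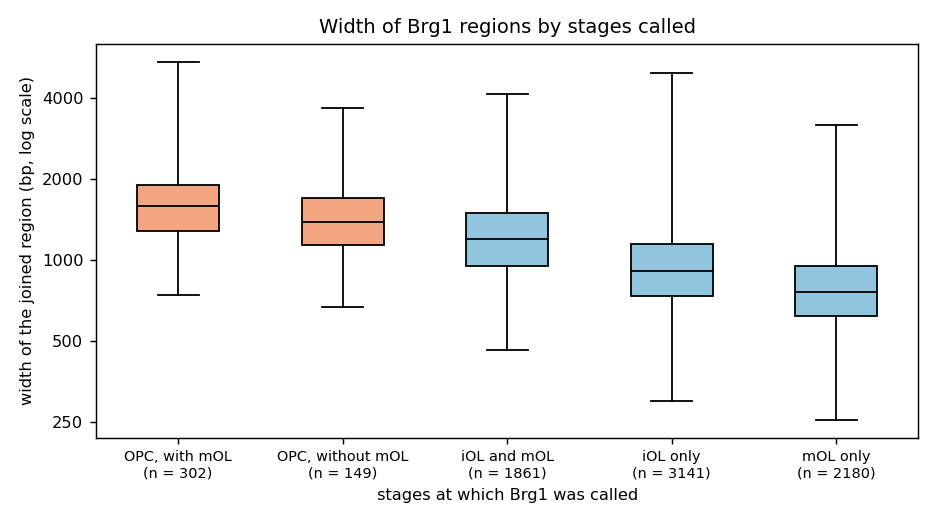
Width in bp (log scale) of joined Brg1 regions by the stages at which Brg1 was called; boxes give quartiles and median, whiskers the lowest and highest value, and n the number of regions. Regions with OPC Brg1 (orange) have medians of 1580 and 1379 bp with and without mOL Brg1, above the 1199 bp of regions called in iOL and mOL (blue).

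The 6 widest regions on placed chromosomes were picked by width and are not typical of the set. Regions with wider OPC peaks met H3K27Ac, and Olig2 in OPC and iOL, more often, as given further on. The widest, chr1:173743078-173748524, held Brg1 peaks of 2786 bp in OPC, 5447 bp in iOL and 2434 bp in mOL. It met Olig2 at all 3 stages and H3K27Ac peaks of 3153, 3112 and 3426 bp in OPC, iOL and mOL. The second, chr1:173884725-173889057, lay on the same chromosome with Brg1 peaks of 2691, 4333 and 1631 bp, and carried the promoter mark H3K4me3 at all 3 stages. The others were chr5:123341297-123345259, chr8:43989855-43993529, chr10:54760427-54763844 and chr11:16003841-16007189. All 6 met Olig2 in OPC and iOL and H3K27Ac at every stage, and 5 had mOL Brg1, the exception being the chromosome 8 region. That region had the widest of all OPC peaks, 3473 bp, a pair of iOL peaks of which the wider had 1351 bp, and no mOL peak. Its widest acetylated peaks measured 2497 bp in OPC, 908 bp in iOL and 5153 bp in mOL. The 3 narrowest regions were less uniform: chr7:50098192-50098859 (668 bp) met H3K27Ac in mOL and no Olig2, and chr6:16837433-16838211 (779 bp) met Olig2 in OPC alone and no H3K27Ac. The remaining narrow region, chr1:253707689-253708430 (742 bp), had Brg1, Olig2 and H3K27Ac at all 3 stages.

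Olig2 was present at almost all OPC Brg1 regions in OPC, and at most of them in iOL. An OPC Olig2 peak met 432 of 451 (95.8%, 93.5 to 97.4) regions, against 65.3% of all Brg1 regions and 73.7% (72.4 to 74.9) of other iOL regions. In iOL, Olig2 met 392 of 451 (86.9%, 83.5 to 89.9), where all regions had 67.0% and other iOL regions 72.6% (71.3 to 73.8). In mOL it met 151 of 451 (33.5%, 29.1 to 38.0), where all regions had 17.8% and other iOL regions 19.1% (18.0 to 20.2). The later shares were close to those of the 1861 other iOL regions that also had mOL Brg1, where Olig2 met 86.1% (84.4 to 87.6) in iOL, 30.0% (28.0 to 32.2) in mOL and, in OPC, 83.4% (81.7 to 85.1). The mOL Olig2 list was short, with 2759 peaks against 25787 in iOL, and this limits every mOL share. Of the regions with OPC Olig2, 390 of 432 (90.3%, 87.1 to 92.9) had it in iOL, against 88.0% over all Brg1 regions, a share near the background, and 35.0% (30.5 to 39.7) had it in mOL, against 26.5%. Over the 1861 regions with iOL and mOL Brg1 these were 93.8% and 35.5%. Olig2 was called at all 3 stages at 150 of 451 (33.3%, 28.9 to 37.8) OPC Brg1 regions, against 17.1% of all regions. A further 240 had it in OPC and iOL, 41 in OPC alone, 2 in iOL alone and 1 in OPC and mOL, and 17 had none. This left 434 of 451 (96.2%, 94.0 to 97.8) with Olig2 at some stage, against 74.9% of all regions. The 1861 other iOL regions with mOL Brg1 had it at all 3 stages at 29.6% (27.5 to 31.7) and at some stage at 91.2% (89.9 to 92.5). The centres of the OPC Olig2 and OPC Brg1 peaks were a median of 127 bp (109.5 to 139) apart, about as far as the centres of Brg1 peaks of different stages. The Olig2 peaks that met OPC Brg1 regions were wide ones, with medians of 1628 bp (1588 to 1686) in OPC and 933.5 bp (892 to 982) in iOL against 1312 bp (1307 to 1316) and 720 bp (716 to 723) over the whole lists. The Olig2 peaks at the other iOL regions had medians of 1468 bp (1458 to 1481) and 859 bp (848 to 869). The part of peak width in these shares was not tested beyond the quartiles of Brg1 width given further on.

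**Figure D2:**
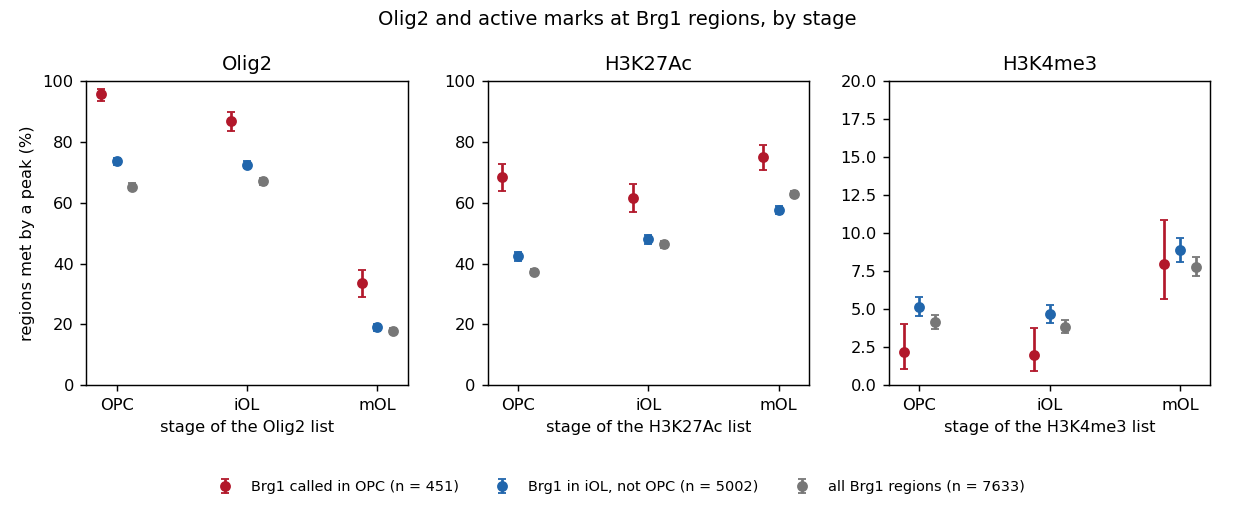
Share of Brg1 regions (%) met by a peak of Olig2, H3K27Ac or H3K4me3 at each stage, with exact 95% intervals over regions; red, the 451 regions with OPC Brg1; blue, the 5002 with iOL and no OPC Brg1; grey, all 7633; the H3K4me3 axis ends at 20%. Red lies above blue at each stage for Olig2 and H3K27Ac, and for H3K27Ac red is lower in iOL (61.6%) than in OPC (68.5%) while blue is higher in iOL (48.0% against 42.4%).

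The 17 regions without Olig2 at any stage were a mixed group. Their median width was 1148 bp (943 to 1242), narrower than the 1495 bp of all OPC Brg1 regions and not than the 943 bp of all Brg1 regions. H3K4me3 was present in OPC at 4 of the 17, out of the 10 OPC Brg1 regions that carried that mark in OPC. All Brg1 regions had it in OPC at 4.15%, and its share at other Brg1 regions without Olig2 is not given here. H3K27Ac met 7 of the 17 in OPC and 11 in mOL, where all Brg1 regions had 37.2% and 62.9%. mOL Brg1 was present at 7 of the 17. Among other iOL regions it was present at 37.2%, and at 163 of the 947 without Olig2 at any stage. In OPC the nearest Olig2 peak lay 0.110 to 232.9 kb away, with a median of 19.1 kb. A pair of regions met Olig2 in iOL and not in OPC, chr17:51102307-51103261 and chr2:170612002-170612982, and neither met H3K27Ac at any stage. The region with Olig2 in OPC and mOL and not in iOL, chr4:37330679-37331688, had Brg1 and H3K27Ac at all 3 stages.

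Most OPC Brg1 regions were acetylated, and with the lists as called fewer of them were acetylated in iOL than in OPC or mOL. H3K27Ac met 309 of 451 (68.5%, 64.0 to 72.8) in OPC, against 37.2% of all Brg1 regions. In iOL it met 278 of 451 (61.6%, 57.0 to 66.2), against 46.4%, and in mOL 339 of 451 (75.2%, 70.9 to 79.1), against 62.9%. H3K27Ac met 42.4% (41.0 to 43.8) of the other iOL regions in OPC and 48.0% (46.6 to 49.4) in iOL, the opposite order, and 57.7% (56.3 to 59.1) in mOL. The 1861 other iOL regions with mOL Brg1 were below OPC Brg1 regions in OPC, at 52.6% (50.3 to 54.9), and above them in iOL and mOL, at 68.5% (66.3 to 70.6) and 78.5% (76.6 to 80.4). The OPC list of H3K27Ac had 19130 peaks, that of iOL 21589 and that of mOL 35268. When each stage was limited to its 19130 widest H3K27Ac peaks, the shares of OPC Brg1 regions were 68.5% (64.0 to 72.8), 59.2% (54.5 to 63.8) and 61.6% (57.0 to 66.2), by order of stage. The other iOL regions then had 42.4%, 46.2% and 45.3%. The higher mOL than OPC share of OPC Brg1 regions was thus found with the lists as called and not with lists of equal length. With lists of equal length the iOL and mOL shares of OPC Brg1 regions also lay inside each other's interval.

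Acetylation at all 3 stages was the most frequent pattern, at 240 of 451 (53.2%, 48.5 to 57.9) OPC Brg1 regions, against 29.4% of all regions. It was called at some stage at 368 of 451 (81.6%, 77.7 to 85.1), against 69.4%, which left 83 without it. At the 1861 other iOL regions with mOL Brg1 these shares were 47.1% (44.8 to 49.4) for all 3 stages and 84.3% (82.6 to 85.9) for some stage. Acetylation in OPC and mOL but not in iOL was found at 45 of 451 (9.98%, 7.37 to 13.1), against 4.56% (4.00 to 5.17) of other iOL regions. Acetylation in iOL and mOL but not in OPC was found at 25 of 451 (5.54%, 3.62 to 8.07), against 10.2% (9.41 to 11.1). In all, 248 of 309 (80.3%, 75.4 to 84.5) of the regions acetylated in OPC were acetylated in iOL, close to the 82.4% over all Brg1 regions. Of those not acetylated in OPC, 30 of 142 (21.1%, 14.7 to 28.8) were acetylated in iOL, against 25.0%. From OPC to mOL the corresponding values were 285 of 309 (92.2%), against 89.6%, and 54 of 142 (38.0%, 30.0 to 46.5), against 47.0%. From iOL to mOL, 265 of 278 (95.3%, 92.1 to 97.5) stayed acetylated, against 91.3%. Pooled, the rates from OPC to iOL lay near those of all Brg1 regions, and 61 regions left the acetylated set while 30 entered it. Within classes of mOL Brg1 the rates were below those of other iOL regions, with intervals that overlap in every case. With mOL Brg1, 87.1% of acetylated regions stayed so and 33.8% of the rest gained it, against 92.1% and 42.2%. Without mOL Brg1 the values were 61.9% and 6.15%, against 71.9% and 15.3%. What lies behind the lower iOL share was not tested. Of the 61, 45 were acetylated again in mOL (73.8%, 60.9 to 84.2), with the lists as called. The 398 such other iOL regions had 57.3% (52.3 to 62.2), and the intervals overlap. Acetylation in iOL alone was found at 5 of 451 (1.11%, 0.361 to 2.57), against 2.70% of all regions and 3.30% of other iOL regions. The 5 were chr16:10128904-10129757, chr2:171817259-171818350, chr3:50102289-50103478, chr7:92946470-92948196 and chrX:71279244-71280208. All 5 met Olig2 in OPC and iOL, and 4 of them, all but the chromosome 16 region, had Brg1 and Olig2 in mOL.

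Where acetylation was present, the centre of Brg1 lay within the acetylated peak in most cases and seldom beside it. The centre of the OPC Brg1 peak was inside an OPC H3K27Ac peak at 282 of 452 (62.4%, 57.7 to 66.9) peaks. It was in a gap with acetylation within 1000 bp on both sides at 9, with acetylation on 1 side at 20, and free of it within 1000 bp at 141. In iOL the centre lay inside an H3K27Ac peak at 53.1% (48.4 to 57.8) and in mOL at 67.9% (63.4 to 72.2). The centres of iOL Brg1 peaks without OPC Brg1 lay inside an H3K27Ac peak at 36.6% in OPC, 42.4% in iOL and 50.9% in mOL. In OPC they had acetylation within 1000 bp on both sides at 1.30% and on 1 side at 5.63%, against 1.99% and 4.42% of OPC Brg1 peaks, so a place beside acetylation was infrequent in both. A region met 2 separate H3K27Ac peaks in 66 of the 309 acetylated cases in OPC, 49 of 278 in iOL and 73 of 339 in mOL. The OPC H3K27Ac peaks met had a median of 1103 bp (985 to 1209), against 745 bp (737 to 752) over the whole list and 942 bp (910 to 974) at other iOL regions.

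Because acetylation and Olig2 both go with Brg1 peak width, the regions with iOL Brg1 were compared within quartiles of iOL peak width. In iOL, acetylation differed little between OPC Brg1 regions and other iOL regions of like width. From the narrowest to the widest quartile it was 20.5%, 46.8%, 53.8% and 83.0% at OPC Brg1 regions and 20.9%, 38.7%, 56.1% and 80.4% at the others, with each interval of the former holding the value of the latter. In OPC a gap was present in every quartile: acetylation was 33.3%, 42.9%, 63.4% and 91.0% against 15.4%, 30.6%, 51.5% and 76.4%. OPC Olig2 behaved alike, at 87.2%, 88.3%, 97.9% and 99.5% against 57.0%, 71.8%, 80.5% and 87.6%. iOL Olig2 differed less, at 66.7%, 74.0%, 89.0% and 95.7% against 53.1%, 70.3%, 80.9% and 88.4%. mOL Brg1 was present at 33.3%, 55.8%, 66.9% and 78.7% of OPC Brg1 regions and 22.0%, 32.8%, 42.1% and 54.2% of the others. The quartiles held 39, 77, 145 and 188 OPC Brg1 regions, so the values of the narrowest are the least precise. The regions were chosen on a library of OPC, and the gaps in OPC acetylation and Olig2 are for the stage of that choice.

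**Figure D3:**
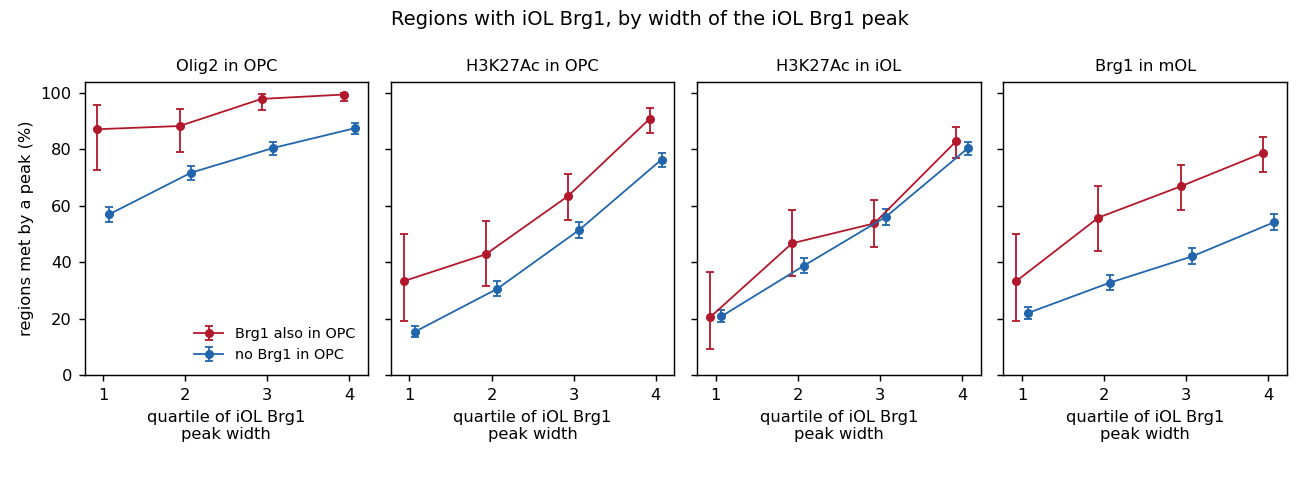
Share of regions with iOL Brg1 (%) met by a peak, by quartile of iOL Brg1 peak width (1 narrowest, 4 widest), with exact 95% intervals over regions; red, regions with OPC Brg1; blue, regions without it. The lines lie apart for Olig2 and H3K27Ac in OPC and for Brg1 in mOL, and close together for H3K27Ac in iOL (83.0% and 80.4% in quartile 4).

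OPC Brg1 regions that kept a Brg1 call in mOL were acetylated and met by Olig2 in iOL more often than those that did not. iOL H3K27Ac met 222 of 302 (73.5%, 68.2 to 78.4) regions with mOL Brg1 and 56 of 149 (37.6%, 29.8 to 45.9) without it. In OPC the same groups were closer, at 74.5% (69.2 to 79.3) and 56.4% (48.0 to 64.5), and in mOL they were at 85.1% (80.6 to 88.9) and 55.0% (46.7 to 63.2) respectively. Of the regions acetylated in OPC, 196 of 225 (87.1%, 82.0 to 91.2) with mOL Brg1 and 52 of 84 (61.9%, 50.7 to 72.3) without it were acetylated in iOL. Of the regions not acetylated in OPC, 26 of 77 (33.8%, 23.4 to 45.4) and 4 of 65 (6.15%, 1.70 to 15.0) were acetylated in iOL. Olig2 showed the same order. In OPC it met 97.4% (94.8 to 98.8) with mOL Brg1 and 92.6% (87.2 to 96.3) without. In iOL it met 94.7% (91.5 to 96.9) with and 71.1% (63.2 to 78.3) without, and in mOL 43.0% (37.4 to 48.8) and 14.1% (8.94 to 20.7). Width differed as well. The OPC Brg1 peak had a median of 1305 bp (1240 to 1368) with mOL Brg1 and 1237 bp (1148 to 1337) without. The iOL peak had 1270 bp (1230 to 1372) and 1070 bp (991 to 1139), intervals that do not overlap. Over the quartiles of iOL peak width given above, mOL Brg1 rose from 33.3% to 78.7% of OPC Brg1 regions. The part of width in the difference was not tested among these regions. A like contrast was present without OPC Brg1. Among other iOL regions, iOL H3K27Ac met 68.5% (66.3 to 70.6) with mOL Brg1 and 35.8% (34.2 to 37.6) without it, and iOL Olig2 86.1% (84.4 to 87.6) and 64.5% (62.8 to 66.2). Their OPC H3K27Ac was 52.6% (50.3 to 54.9) and 36.4% (34.7 to 38.1).

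**Figure D4:**
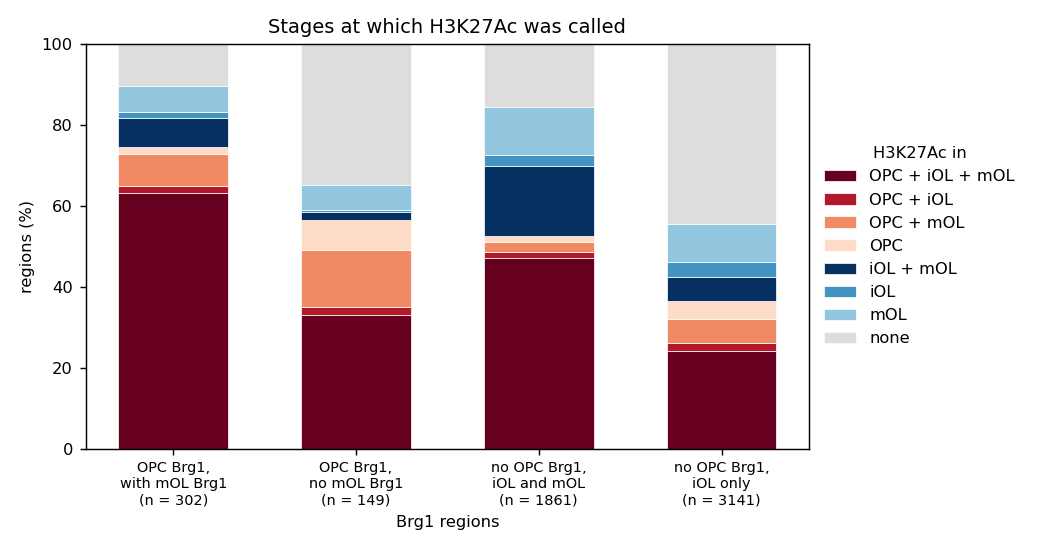
Share of regions (%) by the stages at which H3K27Ac was called, for OPC Brg1 regions with mOL Brg1, those without it, regions without OPC Brg1 called in iOL and mOL, and those called in iOL only; the segments of a bar add to 100%. Acetylation at all 3 stages (darkest) takes 63.2% of the first bar, 32.9% of the second, 47.1% of the third and 24.1% of the last.

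Read in the other direction, the share with mOL Brg1 was highest where iOL Olig2 and iOL H3K27Ac were both present. It was 211 of 262 (80.5%, 75.2 to 85.1) of OPC Brg1 regions with both, 11 of 16 (68.8%, 41.3 to 89.0) with H3K27Ac alone, 75 of 130 (57.7%, 48.7 to 66.3) with Olig2 alone and 5 of 43 (11.6%, 3.89 to 25.1) with neither. The other iOL regions followed the same order at lower levels, with 57.0% (54.8 to 59.1), 31.3% (26.6 to 36.4) and 27.7% (25.6 to 30.0), except that regions with neither had 14.4% (12.3 to 16.7), a value inside the interval of the OPC Brg1 regions. An OPC Olig2 peak that was not followed by an iOL Olig2 peak went with a low share: mOL Brg1 was present at 9 of 42 (21.4%, 10.3 to 36.8) such regions and 285 of 390 (73.1%, 68.4 to 77.4) where Olig2 was called in both. Among other iOL regions these values were 22.5% (18.7 to 26.8) and 44.7% (43.0 to 46.4). Over all regions without iOL Olig2, with or without it in OPC, mOL Brg1 was present at 16 of 59 (27.1%, 16.4 to 40.3) OPC Brg1 regions and 18.9% (16.8 to 21.0) of other iOL regions. Where OPC acetylation was not called in iOL, mOL Brg1 was present at 29 of 61 (47.5%, 34.6 to 60.7) OPC Brg1 regions and 77 of 398 (19.3%, 15.6 to 23.6) other iOL regions. Where it was called at both stages, the values were 196 of 248 (79.0%, 73.4 to 83.9) and 52.4%. A higher share still was found with Olig2 of mOL, where 102 of 108 (94.4%, 88.3 to 97.9) regions with iOL H3K27Ac and mOL Olig2 had mOL Brg1, against 73.7% (69.6 to 77.4) of such other iOL regions.

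**Figure D5:**
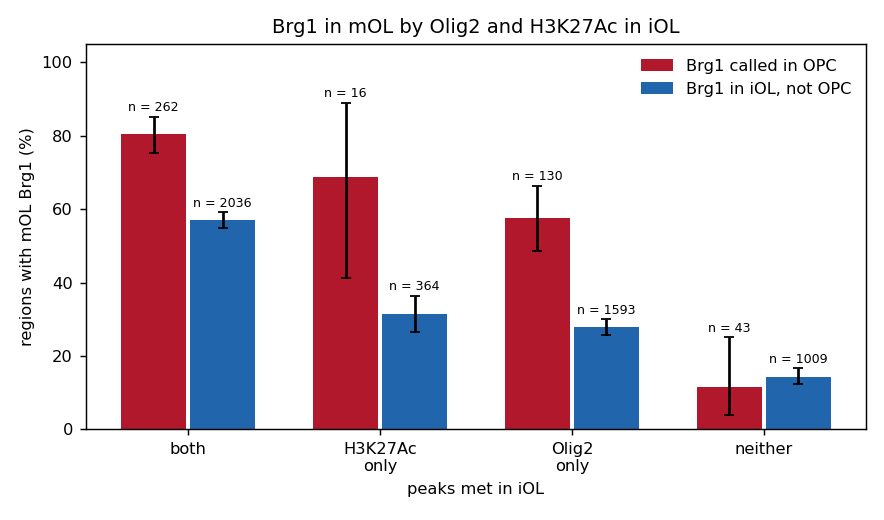
Share of regions with mOL Brg1 (%), by the peaks met in iOL (H3K27Ac and Olig2, either alone, or neither), with exact 95% intervals over regions and n the number of regions; red, OPC Brg1 regions; blue, regions with iOL and no OPC Brg1. Red stands above blue in the first 3 classes (80.5% against 57.0% with both) and not with neither (11.6% against 14.4%).

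The width of the OPC peak itself went with acetylation and with Olig2 of OPC and iOL, and less with later Brg1. Over quartiles of OPC peak width (572 to 1044, 1045 to 1283, 1284 to 1618 and 1620 to 3473 bp, with 112 or 113 regions each) OPC H3K27Ac met 42.5%, 60.2%, 78.6% and 92.9%. iOL H3K27Ac met 45.1%, 52.2%, 68.8% and 80.5%. mOL Brg1 met 59.3%, 67.3%, 67.0% and 74.3%. OPC Olig2 met 89.4%, 95.6%, 99.1% and 99.1%, and iOL Olig2 77.9%, 83.2%, 91.1% and 95.6%, both higher at wider peaks. mOL Olig2 showed no such order, at 36.3%, 33.6%, 30.4% and 33.6%. The 142 regions without OPC H3K27Ac had OPC Brg1 peaks with a median of 1079 bp (998 to 1139), against 1430 bp (1365 to 1489) for the 309 with it. Olig2 was still present in OPC at 130 of 142 (91.5%, 85.7 to 95.6) of the regions without acetylation, and mOL Olig2 at 35.9% (28.0 to 44.4) of them against 32.4% (27.2 to 37.9) of those with it. mOL Brg1 was present at 54.2% (45.7 to 62.6) and 72.8% (67.5 to 77.7).

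Promoter marking was rare. H3K4me3 met 10 of 451 (2.22%, 1.07 to 4.04) OPC Brg1 regions in OPC, 9 of 451 (2.00%, 0.916 to 3.75) in iOL and 36 of 451 (7.98%, 5.65 to 10.9) in mOL, against 4.15%, 3.85% and 7.80% of all Brg1 regions. The mark was called at some stage at 36 of 451 (7.98%, 5.65 to 10.9), against 7.86%. It was present at all 3 stages at 9 regions (2.00%, against 3.51%), in OPC and mOL at 1 and in mOL alone at 26, and no region had it without having it in mOL. The mOL H3K4me3 list was the longest of the 3, with 17530 peaks against 11758 in OPC. The 37 mOL H3K4me3 peaks at these regions had a median of 782 bp (662 to 1665), against 1340 bp (1237 to 1512) at other iOL regions. The 10 peaks of OPC had 1439 bp (967 to 3377) against 1109 bp (1028 to 1250), and the 10 of iOL 1490 bp (694 to 4066) against 1189 bp (1095 to 1273), the opposite order, with wide intervals over so few peaks. All 36 regions with mOL H3K4me3 carried mOL H3K27Ac, and 34 of them were acetylated at all 3 stages. Over all Brg1 regions, mOL H3K4me3 met 595 and mOL H3K27Ac 4798, of which 4244 had no mOL H3K4me3. Most Brg1 regions with mOL H3K4me3 thus carried mOL H3K27Ac, so this is not particular to OPC Brg1 regions. How many of the 595 were acetylated at all 3 stages is not given here. Regions of enhancer type numbered 299 of 451 (66.3%, 61.7 to 70.7) in OPC, 269 of 451 (59.6%, 55.0 to 64.2) in iOL and 303 of 451 (67.2%, 62.6 to 71.5) in mOL, against 33.7%, 42.9% and 55.6% of all regions. OPC Brg1 regions also lay farther from H3K4me3: an OPC H3K4me3 peak lay within 20 kb of 65 regions (14.4%), against 21.0% of other iOL regions. The median distance to that mark was 106 kb, against 89.5 kb.

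RNAPII, the enzyme that transcribes genes, was called at few OPC Brg1 regions, and at none before differentiation. With 332 peaks in all, RNAPII of OPC met 0 of 451 regions, which allows a share of up to 0.665%, against 0.0524% of all Brg1 regions. The iOL RNAPII list held 1425 peaks and met 12 of 451 (2.66%, 1.38 to 4.60), against 1.18% of all regions and 1.14% (0.864 to 1.47) of other iOL regions. All 12 had Brg1 in iOL and mOL, Olig2 in OPC and iOL, and H3K27Ac in iOL and mOL. They made up 3.97% (2.07 to 6.84) of the 302 regions with mOL Brg1. None of the 149 without it had iOL RNAPII, which allows up to 2.01% by 3 counts. The exact upper limit of that 0 is 2.45%, so the exact intervals overlap. Among other iOL regions, iOL RNAPII met 1.72% (1.18 to 2.42) with mOL Brg1 and 0.796% (0.516 to 1.17) without it. The order was thus the same without OPC Brg1. H3K4me3 was called in mOL at 3 of the 12 and in OPC or iOL at none, so 9 lay outside the promoter mark. They were wide, from 1494 to 3135 bp with a median of 1992 bp (1554 to 2935). The widest was chr5:22274118-22277252 and the only one without OPC H3K27Ac was chr10:68892231-68893784, both picked out after the values were seen.

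The silenced-chromatin mark H3K9me3 met 3 regions in OPC, none in iOL and 3 in mOL, against 0.210%, 0.0262% and 0.550% of all Brg1 regions. The iOL count of 0 allows a share of up to 0.665%. These were 5 regions in all (1.11%, against 0.681% of all regions), since chr16:83763395-83764822 had the mark at both stages. The others were chr2:103150201-103151403 and chr6:39851282-39853364 in OPC, and chr8:6052055-6053561 and chr8:68701066-68703359 in mOL. The 3 regions marked in OPC all lacked mOL Brg1, and the pair marked in mOL alone had it. In all, mOL Brg1 was present at 302 of 451 (67.0%) OPC Brg1 regions. Among other iOL regions marked in OPC, 4 had mOL Brg1 and 5 did not. Of those marked in mOL alone, 9 had it and 11 did not. With so few regions no order can be read from these counts. Acetylation in OPC was called at 2 of the 3 regions marked in OPC, and acetylation in mOL at all 3 marked in mOL.

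Other Brg1 regions lay near OPC Brg1 regions about as often as near any Brg1 region. At least 1 other Brg1 region had its edge within 20 kb of 133 of 451 (29.5%, 25.3 to 33.9) OPC Brg1 regions, against 28.7% of all regions. With windows of 10 and 50 kb the shares were 20.0% (16.4 to 23.9) and 48.1% (43.4 to 52.8), against 18.0% and 47.6%. The median distance to the nearest other region was 56.0 kb for OPC Brg1 regions and 56.2 kb for the rest. Of the neighbours, 87 were called in iOL alone, 52 in iOL and mOL, 38 in mOL alone, and 8 were OPC Brg1 regions themselves. A neighbour called in iOL alone was found at 15.7% (12.5 to 19.4), against 13.0% of all regions. A neighbour called in iOL and mOL was found at 10.6% (7.95 to 13.9), against 9.51%. A neighbour called in mOL alone was found at 7.54% (5.28 to 10.4), against 9.84%. A neighbour with OPC Brg1 was found at 1.77% (0.769 to 3.47), against 2.40%. A neighbour was found at 36.7% (30.6 to 43.1) of OPC Brg1 regions acetylated throughout and 22.9% (14.4 to 33.4) of those never acetylated, with intervals that overlap. Over all Brg1 regions these shares were 36.7% (34.7 to 38.8) and 21.3% (19.7 to 23.0). OPC Brg1 regions with and without mOL Brg1 had a neighbour at 31.5% (26.3 to 37.0) and 25.5% (18.7 to 33.3). Other iOL regions with and without mOL Brg1 were alike, at 31.1% (29.0 to 33.2) and 26.7% (25.1 to 28.3).

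The region with most neighbours stood apart from the others. There were 318 OPC Brg1 regions with no neighbour, 95 with 1, 28 with 2, 9 with 3 and 1 with 7. The last, chr1:44924338-44925312, had Brg1 peaks of 807 bp in OPC and 975 bp in iOL and none in mOL. It lay inside a broad H3K4me3 peak of 4857 bp in OPC, 5162 bp in iOL and 8793 bp in mOL, and its acetylated peak was 837 bp in OPC, 858 bp in iOL and 8966 bp in mOL. Of its 7 neighbours, 6 were called in iOL alone and 1 in iOL and mOL, and they spanned gaps of 178 to 14040 bp. Olig2 met 1 of the 7 in OPC and did not meet the region itself at any stage. The 3 widest of the 9 regions with 3 neighbours were chr1:175599135-175601921, chr6:109423325-109425476 and chr5:123438994-123441074, and all 3 had Olig2 in OPC and iOL and H3K27Ac at every stage. The chromosome 5 region lacked mOL Brg1, yet all 3 of its neighbours were called in mOL alone, the closest mOL peak being 12771 bp away. Among OPC Brg1 regions there were 4 pairs within 20 kb of each other, with gaps of 318 to 18338 bp. Both regions of a pair were acetylated in OPC in 3 of the 4, and both had mOL Brg1 in 2.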

How the data were processed

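Each of the 17 libraries had 1 peak list. Per the submitters' processing notes, MACS 1.4.0 and build rn4 were used. The sources used here give no aligner, settings, control or pooling. Each deposited line holds a chromosome and 2 positions in base pairs and no score or read number, so depth is unknown. Widths were computed from these positions, and starts were raised by 1 for printing.

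Samples were grouped by target and stage from their titles, which the growth protocol's name for the cells does not follow. The Brg1 lists were joined as the definition of the regions asks, and a region was said to meet a peak sharing at least 1 bp. Only the Brg1 lists define the regions, and the OPC list chose the members, so OPC Brg1 values are a description. Medians carry binomial order-statistic 95% intervals. Neighbours were other regions with an edge within 20 kb. Where a count is 0, the limit is that given by 3 counts, and intervals and limits cover counting error only. Regions named were, outside unplaced sequence, the 6 widest, the 3 narrowest, the 4 with most neighbours (ties taken by width) and classes of 5 or fewer, besides a few picked after their values were seen and said to be so. The regions, comparisons and naming rule were chosen with earlier results of these data known. Quartiles of the OPC peak, crossed classes, runs of regions and windows for all regions were added later. Overlaps were tested on simulated lists and checked against bedtools 2.31.1. Python 3.11.15, numpy 2.4.6, pandas 2.3.3, scipy 1.17.1 and matplotlib 3.10.9 were used. Genes and sequence at the regions are not reported: the reference tables at hand are of assembly GRCr8, and positions were not converted. Alternatives were other overlap rules, intervals, windows, list lengths and joining distances.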

Additional observations from a re-analysis of the deposited data

How the results depend on the processing

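Of 89 values recomputed under 11 alternatives, 75 stayed inside the interval of the reported value and 14 did not. Not all of them were free to move. A Brg1 peak lies whole within its region, so mOL Brg1 could not change under the rule of 50% overlap. Taking only the wider 50% of the OPC Brg1 peaks gave H3K27Ac at 85.8% in OPC, 74.8% in iOL, 87.2% in mOL and 71.2% at all 3 stages. It also gave Olig2 at 99.1% in OPC and 93.4% in iOL and H3K4me3 at any stage at 11.9%. The median width was then 1771 bp, a rise set by the choice of wider peaks. With the middle 200 bp of the OPC peaks, iOL Olig2 was at 82.9%. With H3K27Ac lists of equal length, mOL H3K27Ac was at 61.6%, fewer mOL peaks being used. Counting peaks within 1000 bp gave H3K9me3 at any stage at 2.66%. A neighbour was found at 20.0% within 10 kb, 48.1% within 50 kb and 1.77% with OPC regions alone as neighbours, as the windows and lists set. Overlap of 50% of the shorter interval, the OPC peaks as the interval, joining across 1000 bp and leaving out unplaced sequence moved no value out of its interval. No paired analysis was possible because each target and stage has 1 library. Depth is unknown and limits every count of regions without a peak, above all for the OPC Brg1 list of 452 peaks and the mOL Olig2 list of 2759.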

Other observations

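OPC Brg1 regions were spread over all placed chromosomes of the lists and followed the other Brg1 regions. They made up between 3.85% of the Brg1 regions of chromosome 19 (5 of 130) and 7.76% of those of chromosome 6 (33 of 425), and the exact 95% intervals of these extremes, 1.26 to 8.75 and 5.40 to 10.7, overlapped. The X chromosome held 3 OPC Brg1 regions among its 70 Brg1 regions, and 2 lay on unplaced sequence.

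Linked into runs with gaps of up to 200 kb, a distance chosen after the data were seen, 379 of the 449 placed regions stood alone, 54 formed pairs, 12 formed runs of 3 and 4 formed 1 run of 4. The run of 4, chr5:123138048-123441074, spanned 303 kb and held 10 further Brg1 regions. All 4 of its members were acetylated at every stage, 3 had Olig2 in OPC and in iOL, none had Olig2 in mOL, and 2 had mOL Brg1. The run chr1:173689722-173889057 held both of the widest OPC Brg1 regions, and its 3 members, from 1836 to 5447 bp wide, all had mOL Brg1, Olig2 in OPC and iOL, and H3K27Ac throughout. The run chr18:50300468-50572109 was the richest in other Brg1 regions, with 13 beside its 3 members, of which 2 had mOL Brg1. The run chr14:70554899-70718042 held no other Brg1 region, and 1 of its 3 members was acetylated at every stage. The remaining run, chr9:65062208-65384634, had mOL Brg1 at all 3 members and H3K27Ac throughout at 2. No genes are named for these runs, since an annotation of build rn4 was not used here.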
